A study of Sus scrofa with 44 samples.

Results

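The genes described here are 10 genes of the neuromuscular junction, chosen by symbol for their known part in the synapse: the acetylcholine receptor subunits CHRNA1, CHRNB1, CHRND, CHRNG and CHRNE, and the clustering genes AGRN, LRP4, MUSK, DOK7 and RAPSN. Of the 22427 Ensembl pig genes in each expression table, 8 were assigned to these 10. A symbol matched CHRNA1, CHRNE, MUSK, AGRN and LRP4. Identifiers without a symbol were assigned to CHRNG, CHRNB1 and DOK7 because their m6A peaks lay on RefSeq exons of these genes on the same strand. No identifier could be assigned to CHRND or RAPSN by symbol or through peaks, so no level or peak is given for them. Only their RefSeq sequences were used, in searches for motifs. The levels come from input RNA of the longissimus dorsi, the long back muscle, of pig fetuses (labels E33, E40, E50, E60, E70 and E95, the number being days post coitus). Each stage has 3 rRNA-depleted input libraries, 18 in all. Each stage also has 3 libraries of RNA pulled down with an antibody against N6-methyladenosine (m6A), from which the authors' peak list of that stage derives, and PK15, a pig kidney cell line, adds a list from polyA RNA and a list from rRNA-depleted RNA. No genotype, treatment, breed, sex or litter is given in the labels, and nothing says that the 3 libraries of a stage came from separate animals, so the p-values measure the spread between these libraries, which may be technical.

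The muscle acetylcholine receptor is the ligand-gated channel by which a motor nerve triggers contraction. It is built from alpha, beta and delta subunits with either gamma, the subunit of fetal muscle, or epsilon, which replaces gamma as the synapse matures. Agrin binds LRP4, which activates the receptor tyrosine kinase MuSK; Dok-7 binds MuSK inside the fibre and rapsyn anchors the receptors in clusters. In bulk muscle RNA, fewer cells of a type and less RNA per cell cannot be told apart.

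Levels are given as TPM, a length-corrected share of the transcripts of a library. Every library sums to 1000000 TPM, so depth is unknown, and 1 gene without a symbol took 37.4% to 72.4% of that sum. E40 replicate 2 and E50 replicate 3 stood apart: a second gene without a symbol took 17.3% and 14.4% of their TPM, against 1.19% or less in the other 16, and all 7 members other than CHRNE were lower in them than in the other libraries of their stage. Levels are therefore given as deposited and, where stated, after median-ratio scaling, which divides each library by its median ratio to a common reference. From E33 to E95, the 13334 genes tested had a median change of -1.02 (log2) on the deposited values and 0.00 on the scaled ones. The summed level of 9 matched skeletal muscle markers was 4126 to 7682 TPM at E33 and 12819 to 17967 TPM at E95, so the markers of the labelled tissue were present.

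**Figure D1:**
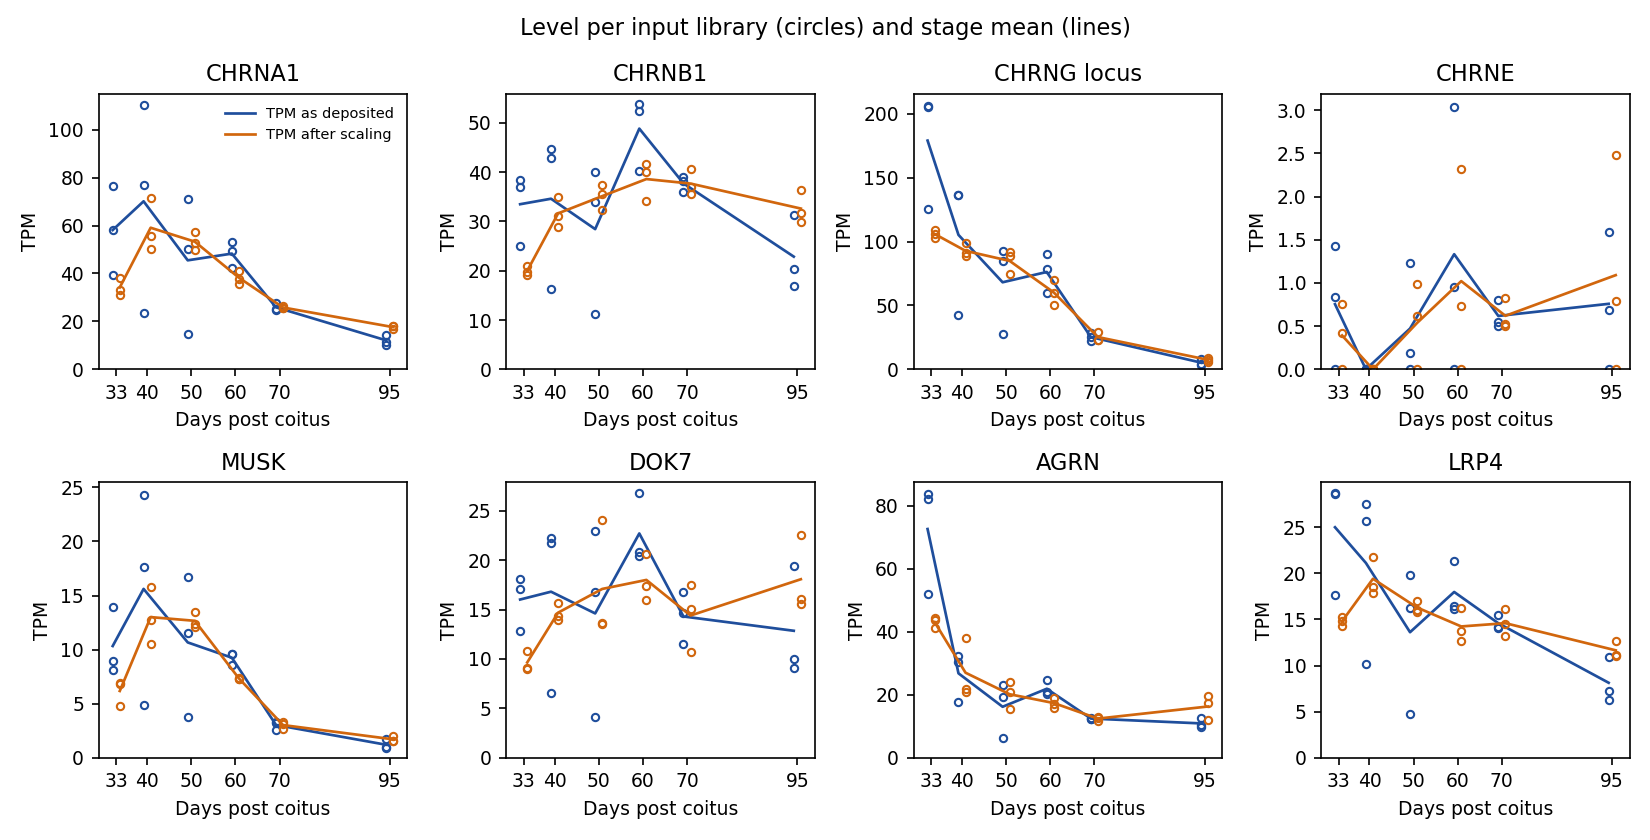
TPM of the 8 measured genes in each input library (circles) and the mean of each stage (lines) against days post coitus, as deposited (blue) and after median-ratio scaling (orange). CHRNG, CHRNA1 and MUSK end at their lowest means at E95 on both scales, while the scaled means of CHRNB1 and DOK7 are higher at E95 (32.6 and 18.1) than at E33 (20.0 and 9.65).

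Between E33 and E95, the receptor's gamma subunit, its alpha subunit, agrin, MUSK and LRP4 fell. CHRNB1 and DOK7 had no call as deposited and were higher after scaling. With the 2 most abundant genes taken out of the TPM, neither was called. Their changes were then 0.03 (limma adjusted p = 0.879) and 0.21 (adjusted p = 0.52). Cartilage or bone markers were lower at E95 too: the 7 matched of 8 (2 of them with a mean under 1 TPM) summed to 168 to 308 TPM at E33 and 16.9 to 27.6 at E95 (scaled, 115 to 164 and 29.8 to 37.7), with COL2A1 at 105 to 183 and 10.4 to 17.6 TPM. Their part in the members' changes was not tested. Of the 7 members with a mean of at least 1 TPM, 5 were lower at E95 as deposited (limma, adjusted p under 0.05), where 45.8% of all genes tested were lower and 2.64% higher. The median change of the 7 was -2.14 on the log2 scale. After scaling, the same 5 were lower (23.1% of all genes) and CHRNB1 and DOK7 were higher (23.7% of all genes), with a median of -0.92. The F test over the 6 stages called CHRNG, CHRNA1, MUSK and AGRN as deposited (20.1% of all genes) and all 7 after scaling (47.3%). CHRNE, with a mean under 1 TPM, was below the filter.

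**Figure D2:**
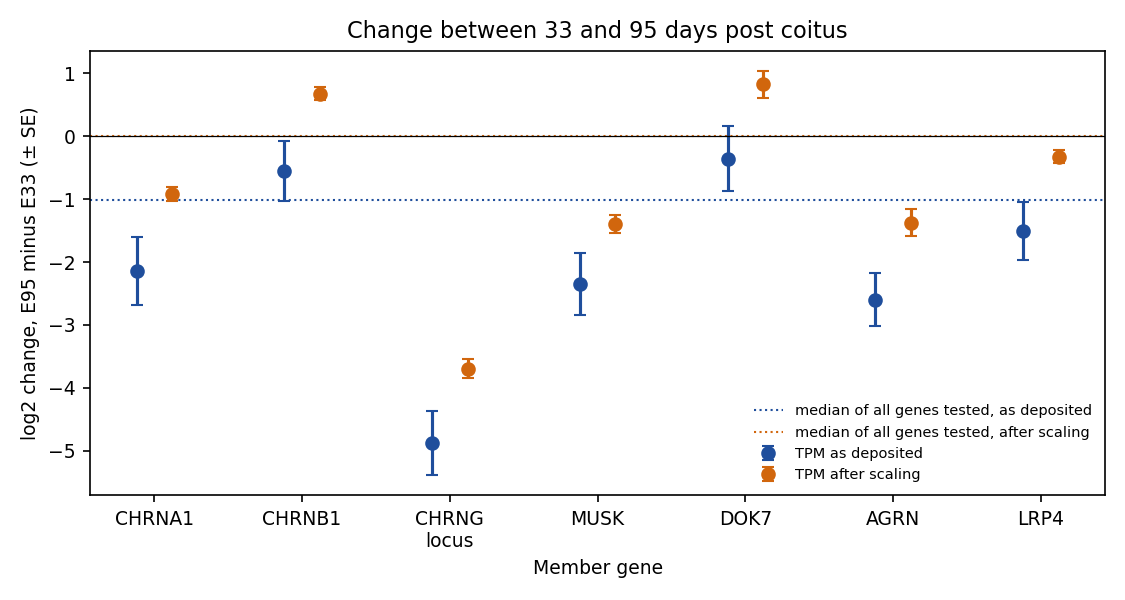
The log2 change of E95 minus E33 with its SE from limma for the 7 members tested, as deposited (blue) and after scaling (orange), with 3 libraries per stage; dotted lines mark the median change of all genes tested. CHRNG lies lowest at -4.88 and -3.69, and CHRNB1 and DOK7 lie above the median of all genes on both scales.

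CHRNG, the gamma subunit of the fetal receptor, had the largest fall of the 7. Its locus (ENSSSCG00000016288, chr15:133051668-133059935, plus strand, Sscrofa11.1) measured 126, 205 and 206 TPM at E33 and 3.54, 4.30 and 7.85 TPM at E95. The highest E95 library thus lay far below the lowest at E33. The change was -4.88 as deposited (SE 0.511, limma adjusted p = 1.52e-06) and -3.69 after scaling (SE 0.157, adjusted p = 3.24e-10). The identifier was assigned to CHRNG because each of its peaks overlapped CHRNG exons, so that overlap is not separate evidence for the assignment. Of the bases in the peaks of this identifier, 89.7% lay on CHRNG exons. The rest lay between CHRND and CHRNG, and whether its gene model also covers the neighbouring CHRND, the delta subunit, is not given in the sources used here.

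After scaling, the CHRNG locus declined in its stage means from 105.9 ± 3.34 TPM at E33 through 92.7 ± 5.47, 84.8 ± 9.01, 60.1 ± 9.67 and 25.2 ± 3.49 to 7.40 ± 1.81 TPM (SD, n = 3 per stage, in stage order). The libraries of E40 and E50 overlapped, and the other neighbouring stages did not. The step from E60 to E70 was -1.22 (adjusted p = 9.76e-04) and that from E70 to E95 was -1.66 (adjusted p = 1.38e-05). The steps from E33 to E40 (-0.19), E40 to E50 (-0.13) and E50 to E60 (-0.50) did not pass the test. As deposited no step passed it, including the last (-2.13, adjusted p = 0.106).

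CHRNE, the epsilon subunit of the adult receptor (ENSSSCG00000017909, chr12:51999504-52016592, plus strand), stayed near the lower end of measurement. It was listed at 0, 0.834 and 1.43 TPM at E33, at 0 in all 3 libraries of E40, at 0, 1.23 and 0.186 at E50, at 0, 0.957 and 3.04 at E60, at 0.506, 0.545 and 0.804 at E70, and at 1.59, 0 and 0.682 at E95. Its libraries overlapped between E33 and E95, and E70 was the one stage with a value above 0 in every library. Fitted without the filter on low values, the change from E33 to E95 was -0.01 as deposited (SE 0.473, limma adjusted p = 1) and 0.44 after scaling (SE 0.450, adjusted p = 0.498). RefSeq annotates this CHRNE locus as a long non-coding RNA, and the effect of that model on the deposited values was not tested.

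The ratio of CHRNG to CHRNE compares the fetal with the adult subunit. In libraries with both genes above 0 it was 144 and 246 at E33, 75.1 and 148 at E50, 25.8 and 94.7 at E60, 35.4 to 46.0 in the 3 libraries of E70, and 2.22 and 11.5 at E95. Every E95 value lay below every value of the earlier stages. With 1 TPM added to each gene, the mean log2 ratio was 6.74 ± 0.295 at E33 and 1.87 ± 0.920 at E95 (SD, n = 3 each), a difference of -4.87 with an exact two-sided permutation p = 0.1, the smallest that 3 against 3 allows. CHRNE was listed at 0 in 7 of the 18 libraries, E33 replicate 1 and E95 replicate 2 among them, where this value holds only CHRNG. At E95 the level of CHRNG still exceeded that of CHRNE in each of the 3 libraries.

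**Figure D3:**
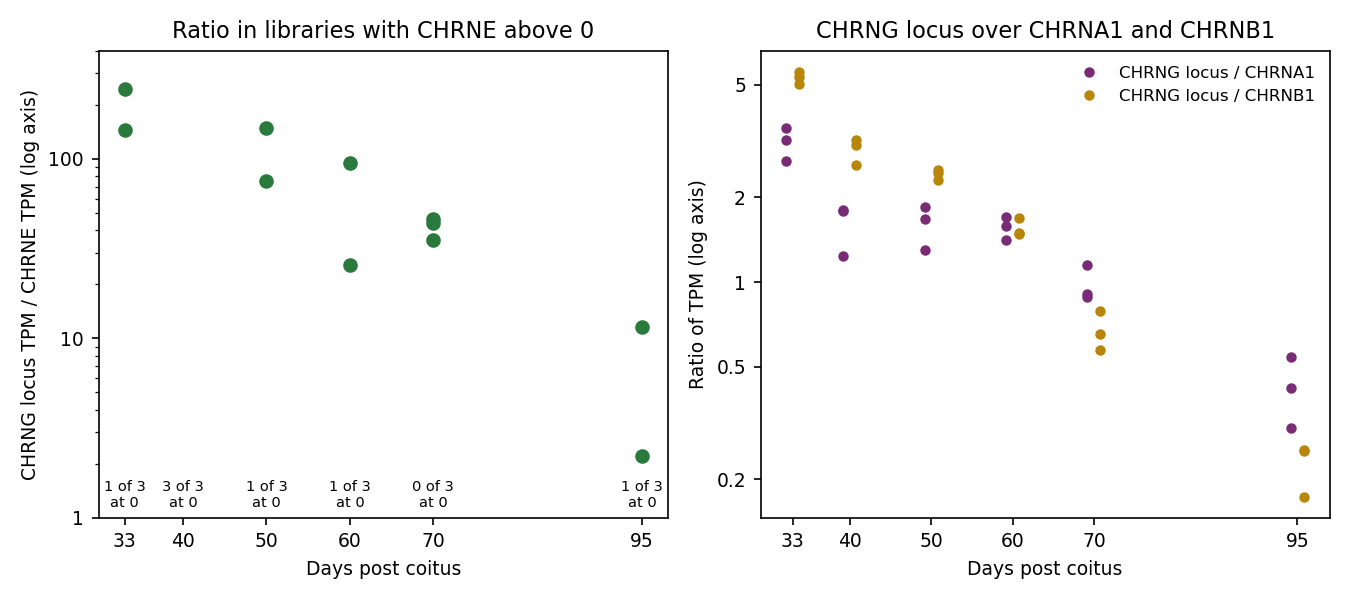
Ratios of TPM within single input libraries, on log axes, against days post coitus. Left, CHRNG locus over CHRNE, from 144 and 246 at E33 to 2.22 and 11.5 at E95, with the number of libraries in which CHRNE was listed at 0; right, CHRNG locus over CHRNA1 and over CHRNB1, both above 1 at E33 and below 1 at E95.

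CHRNA1 encodes the alpha subunit, which binds acetylcholine (ENSSSCG00000015969, chr15:80673072-80692256, minus strand). It was at 39.6, 76.5 and 58.4 TPM at E33 and at 11.6, 10.2 and 14.4 TPM at E95, with no overlap. The change was -2.14 as deposited (SE 0.542, limma adjusted p = 0.00476) and -0.92 after scaling (SE 0.117, adjusted p = 1.68e-05). On the scaled values CHRNA1 first rose, from 34.2 ± 3.69 TPM at E33 to 59.1 ± 10.9 at E40 (SD, n = 3 each; log2 change 0.76, adjusted p = 4.46e-04). It then stood at 53.3 TPM at E50 and 38.2 at E60, and fell to 25.8 at E70 (adjusted p = 0.0276, a call lost without any 1 of the 6 libraries, at 0.0547 to 0.114) and 17.6 at E95 (adjusted p = 0.00782). As deposited, the E40 libraries spanned 23.5 to 110 TPM and overlapped with those of E33, and the step was 0.06 (adjusted p = 0.947).

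CHRNB1, the beta subunit (ENSSSCG00000030263, chr12:52749422-52774642, plus strand), had overlapping levels at both ends of the series. It was at 24.99, 38.5 and 37.0 TPM at E33 and at 20.4, 16.9 and 31.3 at E95. As deposited the change was -0.55 (SE 0.473, limma adjusted p = 0.318), which passed when E40 replicate 2 and E50 replicate 3 were left out of the fit (adjusted p = 0.0381). After scaling it turned to 0.68 (SE 0.105, adjusted p = 1.02e-04), from 20.0 ± 0.918 to 32.6 ± 3.33 TPM (SD, n = 3 each), without overlap. The scaled level was 31.6 TPM at E40 (log2 change from E33 0.64, adjusted p = 8.29e-04).

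Ratios within a library do not depend on the scaling. CHRNG to CHRNB1 went from 5.31 ± 0.263 at E33 through 2.95 ± 0.311, 2.41 ± 0.0947, 1.55 ± 0.113 and 0.673 ± 0.111 to 0.226 ± 0.0457 at E95 (SD, n = 3 per stage), and no neighbouring stages overlapped. CHRNG to CHRNA1 was 3.13 ± 0.422 at E33, between 1.57 and 1.61 on average from E40 to E60, 0.979 ± 0.147 at E70 and 0.424 ± 0.120 at E95. CHRNA1 to CHRNB1 was 1.72 ± 0.236 at E33, 1.90 ± 0.522 at E40 and 0.545 ± 0.0745 at E95. At E33 CHRNG lay above CHRNA1 and CHRNA1 above CHRNB1 in each library, and at E95 this order was turned around. These ratios are a description and were not tested.

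Among the clustering genes, AGRN encodes agrin, the secreted signal that starts receptor clustering (ENSSSCG00000022204, chr6:63366017-63398311, plus strand). It was at 51.9, 82.2 and 83.6 TPM at E33, at 30.4, 17.8 and 32.3 at E40, and at 12.5, 9.82 and 10.4 at E95. The E33 libraries lay above those of every later stage. From E33 to E95 it fell by 2.60 on the log2 scale as deposited (SE 0.423, limma adjusted p = 1.36e-04) and by 1.37 after scaling (SE 0.212, adjusted p = 9.39e-05). From E33 to E40 the change was -0.71 after scaling (adjusted p = 0.0299), and -1.42 as deposited, which did not pass (adjusted p = 0.0581). In E40 replicate 2, one of the libraries that stood apart, the scaled level was 38.1 TPM, against 22.0 and 20.9 in the other libraries of that stage.

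Neurons make agrin as well as muscle. The summed level of 11 of 13 neuron markers (7 of the 11 with a mean under 1 TPM) was 128 to 309 TPM at E33, 12.7 to 34.0 at E40 and 2.75 to 3.09 at E95. NEFL, a neurofilament, made up most of it, at 111 to 222 TPM at E33 and 1.92 to 2.60 at E95. Of the genes that define cholinergic neurons, SLC18A3 was listed at 0 in all 18 libraries and CHAT did not exceed 0.181 TPM. The 8 matched Schwann cell markers summed to 23.0 to 43.8 TPM at E33 and 34.2 to 65.3 at E95. The part of neuronal RNA in the AGRN levels was not tested.

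LRP4, the agrin receptor on the fibre (ENSSSCG00000013248, chr2:15616137-15672876, plus strand), was at 17.7, 28.6 and 28.7 TPM at E33 and at 7.19, 6.29 and 10.9 at E95, without overlap. The change was -1.51 as deposited (SE 0.464, limma adjusted p = 0.0140) and -0.32 after scaling (SE 0.104, adjusted p = 0.0199). Either call rested on single libraries. As deposited it was lost without E33 replicate 2 (adjusted p = 0.0591), E33 replicate 3 (0.0585) or E95 replicate 2 (0.0621), and after scaling without E33 replicate 3 (0.0607), E95 replicate 1 (0.0625) or E95 replicate 2 (0.0638). The ratio of AGRN to LRP4 was 2.91 ± 0.0289 at E33 and 1.37 ± 0.328 at E40 (SD, n = 3 each).

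MUSK encodes the receptor tyrosine kinase at the centre of the pathway (ENSSSCG00000005456, chr1:251650151-251758538, plus strand). Its level was 8.10, 13.9 and 8.98 TPM at E33, 17.6, 4.90 and 24.3 at E40, and 0.971, 0.899 and 1.75 at E95. The E95 libraries lay below all others. The change from E33 was -2.35 as deposited (SE 0.487, limma adjusted p = 0.00115) and -1.40 after scaling (SE 0.141, adjusted p = 1.56e-06).

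On the scaled values MUSK rose from 6.18 ± 1.22 TPM at E33 to 13 ± 2.63 at E40 (SD, n = 3 each; log2 change 0.96, adjusted p = 3.01e-04) and stood at 12.7 ± 0.736 at E50. It fell to 7.34 at E60 (-0.71, adjusted p = 0.0281), 3.03 at E70 (-1.05, adjusted p = 0.00139) and 1.71 at E95 (-0.57, adjusted p = 0.0141). The call between E50 and E60 was lost whenever 1 of the 6 libraries of these stages was left out. MUSK and CHRNA1 followed nearly the same course, with a Pearson correlation of 0.984 over the 18 scaled libraries, which share their stages and scaling factors.

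DOK7, whose product activates MuSK from inside the fibre (ENSSSCG00000008702, chr8:2089645-2119076, plus strand), was at 12.9, 18.05 and 17.1 TPM at E33 and at 9.99, 9.14 and 19.4 at E95, with overlap. The change was -0.36 as deposited (SE 0.519, limma adjusted p = 0.555). After scaling it turned to 0.83 (SE 0.214, adjusted p = 0.00558), from 9.65 ± 1.01 to 18.1 ± 3.89 TPM (SD, n = 3 each). The ratio of MUSK to DOK7, free of the scaling, was 0.642 ± 0.124 at E33, 0.887 ± 0.183 at E40, 0.412 ± 0.0507 at E60, 0.219 ± 0.0620 at E70 and 0.0952 ± 0.0046 at E95.

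Between neighbouring stages, no member passed as deposited in any of the 5 steps (limma). At an unadjusted p under 0.05 there was 1 from E33 to E40, 0 in each of the next 2 steps, 2 from E60 to E70 and 1 from E70 to E95. At an adjusted p under 0.05, the share of all genes called in these steps was 4.87%, 0.0075%, 0.06%, 0.0825% and 0.285%. No such share was computed at an unadjusted p, so the member counts at an unadjusted p cannot be set against these values. After scaling, 5 members were called from E33 to E40, with MUSK, CHRNA1, CHRNB1 and LRP4 higher and AGRN lower (20.9% of all genes). From E40 to E50 the count was 0 (1.51% of all genes), with 1 member at an unadjusted p under 0.05. MUSK was called from E50 to E60, where it was lower (0.817% of all genes). CHRNA1, CHRNG and MUSK, all lower, were called from E60 to E70 (1.73%) and from E70 to E95 (13.6%). Several scaled calls rested on single libraries. From E33 to E40 the count was 3 without any 1 of the E33 libraries, where LRP4 and AGRN were lost, and 4 without any 1 of E40, where AGRN (replicate 1 or 3) or LRP4 (replicate 2) was lost. From E60 to E70 the CHRNA1 call was lost without any 1 of its 6 libraries. From E70 to E95 the MUSK call was lost without E70 replicate 1 (adjusted p = 0.0596), E95 replicate 1 (0.0550) or E95 replicate 2 (0.0533). Both CHRNG calls were kept without any 1 library of their stages. Fitted without E40 replicate 2 and E50 replicate 3, the deposited values gave other counts. These were 2 from E33 to E40, 2 from E60 to E70 and 5 from E70 to E95. The share of all genes called in that fit was not computed, so these counts have no background.

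TPM is a level per length of transcript, so the members can be ordered within a library. All 3 E33 libraries had the same order: CHRNG (179 ± 46.1 TPM, SD, n = 3), AGRN (72.6 ± 17.9), CHRNA1 (58.1 ± 18.5), CHRNB1 (33.5 ± 7.40), LRP4 (24.99 ± 6.33), DOK7 (16.0 ± 2.76), MUSK (10.3 ± 3.14) and CHRNE. Between libraries, the ranges of AGRN and CHRNA1, of CHRNB1 and LRP4, of LRP4 and DOK7 and of DOK7 and MUSK overlapped. In each E95 library CHRNB1 was highest (22.9 ± 7.49), and CHRNG (5.23 ± 2.30) lay below LRP4 (8.13 ± 2.46), although their ranges between libraries overlapped. The ranges of DOK7 (12.9 ± 5.71), CHRNA1 (12.1 ± 2.14), AGRN (10.9 ± 1.43) and LRP4 overlapped, as did those of MUSK (1.21 ± 0.470) and CHRNE below them.

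By the authors' peak lists, 6 of the 7 members with a mean of at least 1 TPM had an m6A peak in at least 1 of the 6 muscle lists, against 45.8% of all such genes. The identifiers of CHRNG, DOK7 and CHRNB1 were assigned through their peaks, so this count is raised by the assignment. CHRND and RAPSN had no symbol match and could have been assigned only through peaks, so they are missing from it. The counts per stage have the same limits, and none of these counts can be read as above the share of all genes. Of the 5 members matched by symbol, 4 had a peak and CHRNE had none. Among members of at least 1 TPM at the stage, 4 of 7 had a peak at E33 (33.5% of genes), 1 of 7 at E40 (22.9%), 2 of 7 at E50 (32.6%), 4 of 8 at E60 (31.7%), 4 of 7 at E70 (35.6%) and 5 of 7 at E95 (37.5%). MUSK alone was in all 6 lists, as were 18.3% of genes. There is 1 list per stage, so a peak's presence and its fold enrichment, both the authors' values, have no replicates.

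The MUSK peaks sat on the stop codon in the last of 16 exons. They ran from 225 bases of coding sequence into 253 bases of the 3′ UTR at E33 and E40, and held 554 coding bases at E50, 255 at E60 and 106 at E70. At E95 the peak began past the stop codon and held 0. The fold enrichment was 7.08 at E33, 8.45 at E40, 7.69 at E60, 8.86 at E70 and 9.18 at E95, and was highest at E50, and in each of the 6 lists it lay at or above the 90.0th percentile of that list. A second peak lay further upstream in this exon at E33 (4.30) and E40 (2.77). No PK15 list held a MUSK peak. No expression values of PK15 were used here, so whether MUSK RNA was present in these cells was not tested. The first stretch is the coding sequence up to and including the stop codon that the peaks of 5 lists (all but E95) shared; the 2 short windows are centred on the A of a DRACH inside the 240 bases of 3′ UTR (chr1:251751313-251751552) that all 6 shared. Capitals mark DRACH, the sequence context of m6A (A, G or T, then A or G, then AC, then A, C or T), searched on the transcript's strand.

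MUSK coding end, chr1:251751194-251751299, plus strand: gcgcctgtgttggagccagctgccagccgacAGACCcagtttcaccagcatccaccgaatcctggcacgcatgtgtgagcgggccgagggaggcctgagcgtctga
MUSK window centred 22 bases past the stop codon, chr1:251751309-251751333, plus strand: catgcgaagaGGACCctccagcctc
MUSK window centred 182 bases past the stop codon, chr1:251751469-251751493, plus strand: tgaaaacgggTGACCggaaaggcgg

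The shared 240 bases of the MUSK 3′ UTR held 8 DRACH, and at least as many were found in 6.5% of the windows of that length in the RefSeq transcripts of the 10 genes. The 106 coding bases held 1, and at least 1 was found in 83.7% of windows of their length. Over the whole MUSK transcript, DRACH stood at 1.79 per 100 bases inside the peaks and 1.97 outside them. A match is a description of the letters and not a methylated site.

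**Figure D4:**
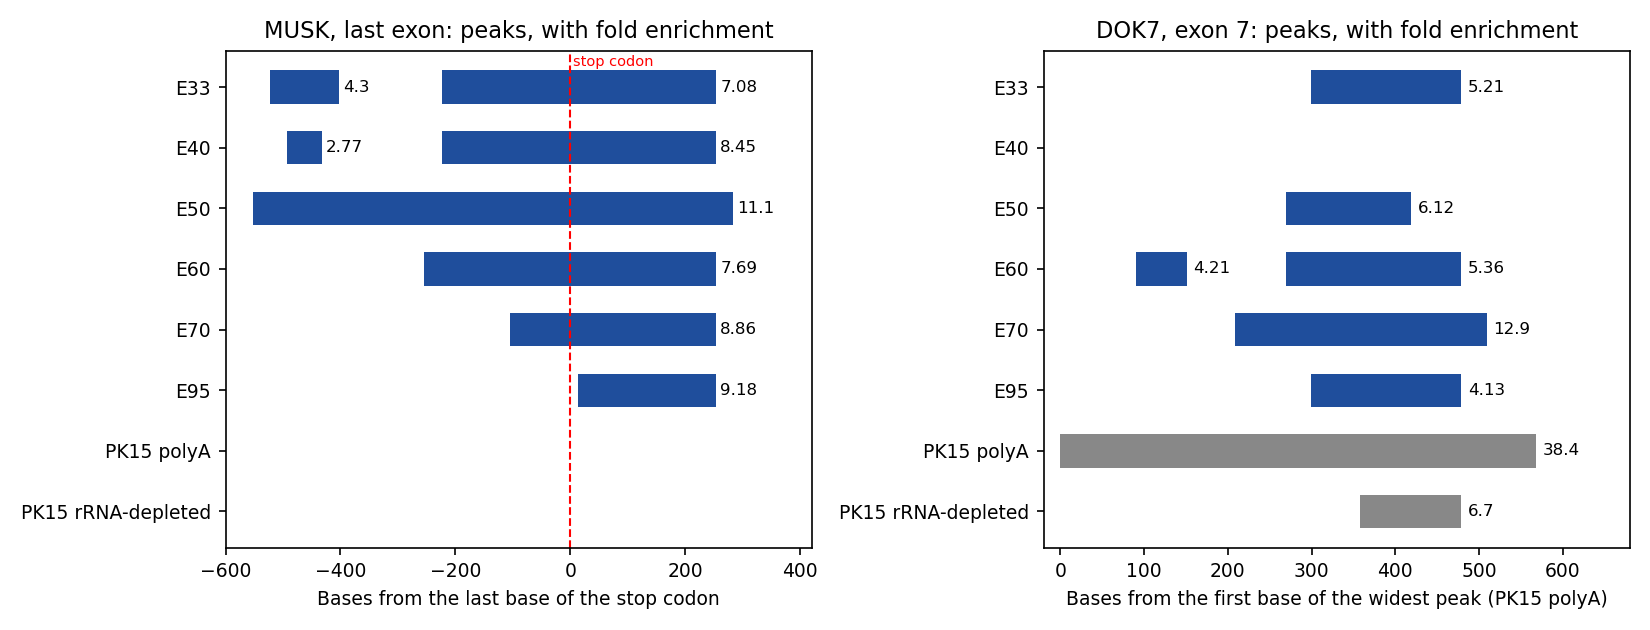
Peaks of MUSK around its stop codon (left, bases from the last base of the stop codon) and of DOK7 in exon 7 (right, bases from the first base of the widest peak), 1 line per peak list, with the authors' fold enrichment beside each bar. MUSK has a peak in all 6 muscle lists and none in PK15, where its RNA level is not known. The DOK7 peaks overlap in 5 muscle lists and both PK15 lists.

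DOK7 had a peak inside exon 7 of 11, a coding exon, in 5 muscle lists and in both PK15 lists, and none at E40. The fold enrichment was 5.21 at E33, 6.12 at E50 and 5.36 at E60, and it was 12.9 at E70 and 4.13 at E95. It was 38.4 in PK15 polyA RNA against 6.70 in rRNA-depleted PK15 RNA. The medians of these lists were 3.51, 4.88, 4.06, 4.22, 4.42, 7.41 and 3.92. A second peak lay in the same exon at E60 (4.21) and another in the first exon in PK15 polyA RNA (6.14). The 120 bases printed here, all coding, were shared by the 5 muscle lists and overlapped with both PK15 lists. They held 3 DRACH, and at least as many were found in 36.3% of windows of that length.

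DOK7 exon 7, chr8:2111069-2111188, plus strand: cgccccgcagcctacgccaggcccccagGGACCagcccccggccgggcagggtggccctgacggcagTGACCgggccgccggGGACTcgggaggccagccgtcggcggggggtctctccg

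The CHRNG locus had peaks at E33 (fold enrichment 4.94, 1.80 and 1.51), E60 (2.84 and 2.27), E70 (2.48) and E95 (6.54). Those at E33 and E60 with the highest fold began upstream of the RefSeq gene, with 69 and 39 bases off its exons. In these 4 lists the peaks shared 104 coding bases in exon 4 of 7, printed here, with 1 DRACH (at least 1 in 83.2% of windows of that length). They also shared 15 coding bases further downstream (chr15:133054991-133055005), not printed, with 1 DRACH. The fold of the peak that held both stretches was 1.80 at E33, in the lowest 3.5% of that list, 2.27 at E60, 2.48 at E70 and 6.54 at E95, at the 77.5th percentile. With 1 list per stage and an input level that fell between these stages, whether the fold differed between them was not tested.

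CHRNG coding core, chr15:133053904-133054007, plus strand: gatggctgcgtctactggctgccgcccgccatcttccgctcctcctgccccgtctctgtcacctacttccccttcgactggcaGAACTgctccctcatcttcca

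The other members had few peaks. AGRN had a coding peak in exon 23 of 38 at E33 (1.85) and E95 (5.14) and in rRNA-depleted PK15 RNA (2.40), and 3′ UTR peaks at E33 (2.80) and in PK15. LRP4 had a peak of 91 bases across its stop codon at E70 (5.13) and E95 (8.23). CHRNA1 had 1 coding peak, at E60 (2.24). CHRNB1 had none in muscle and 2 in PK15 polyA RNA (6.56 and 3.01), and no peak was listed for CHRNE.

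The start of CHRNA1 and that of MUSK are shown because their levels moved together. Each sequence is the 250 bases before the RefSeq gene start, and capitals mark CANNTG, the E-box bound by myogenic factors (its reverse complement reads the same). CHRNA1 had 3, the nearest at -24 and -43, and at least as many were found in 10.3% of the promoters of 19556 coding genes. MUSK had 5, including an overlapping pair, and at least as many were found in 0.8%. Whether the motifs counted here lie in repeated sequence was not tested, nor was binding to any of them. CHRNG had 4, CHRNB1, CHRNE, RAPSN and DOK7 had 3 each, CHRND had 2, and AGRN and LRP4 had 0, where 61.9% of promoters had at least 1. The RefSeq gene starts are annotated, not measured here. Peaks of the CHRNG identifier began before its annotated start, at chr15:133049387 in the E33 list and chr15:133049679 in the E60 list. Whether the 250 bases searched for CHRNG are its promoter was not tested. The CHRNE start is that of the long non-coding RNA model.

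CHRNA1 upstream, chr15:80692257-80692506, minus strand: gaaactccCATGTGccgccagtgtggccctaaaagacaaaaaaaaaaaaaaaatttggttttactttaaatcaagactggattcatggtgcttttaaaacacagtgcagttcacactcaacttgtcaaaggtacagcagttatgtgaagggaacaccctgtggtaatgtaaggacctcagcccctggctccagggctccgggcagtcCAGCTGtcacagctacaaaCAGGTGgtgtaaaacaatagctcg
MUSK upstream, chr1:251649901-251650150, plus strand: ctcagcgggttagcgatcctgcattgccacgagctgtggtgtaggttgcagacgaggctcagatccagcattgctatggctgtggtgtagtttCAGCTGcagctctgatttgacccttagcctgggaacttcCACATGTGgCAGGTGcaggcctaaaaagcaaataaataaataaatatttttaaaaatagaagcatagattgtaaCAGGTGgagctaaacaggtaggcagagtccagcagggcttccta

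Other genes of the synapse were read from lists drawn up by function. From E33 to E95, 45.8% of all genes tested were lower and 2.64% higher as deposited, and 23.1% were lower and 23.7% higher after scaling, and each list's count is to be read against these shares. In neuregulin signalling to subsynaptic nuclei, 3 of 7 genes tested were lower at E95 than at E33 as deposited and 0 higher, and 1 was lower and 2 higher after scaling; the share lower as deposited was near that of all genes. ERBB3, a neuregulin receptor, fell on both scales, from 71.8 ± 16.8 to 7.47 ± 2.29 TPM (SD, n = 3 each; log2 change -3.11, limma adjusted p = 1.41e-04; -1.91 after scaling). Among MuSK partners, 5 of 10 were lower and 0 higher as deposited, and 4 lower and 3 higher after scaling, again with a deposited share near the 45.8% of all genes. WNT11, a Wnt ligand, went from 40.8 ± 3.18 to 5.62 ± 1.03 TPM (-2.67, adjusted p = 1.69e-05; -1.49 after scaling). PDZRN3, a ubiquitin ligase of MuSK, changed by -1.90 (-0.67 after scaling). CTTN, the actin regulator cortactin, changed by -1.91 (-0.67 after scaling, a call lost without E33 replicate 3, adjusted p = 0.0665).

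In the synaptic basal lamina with acetylcholinesterase, 3 of 9 genes were lower and 0 higher as deposited (45.8% and 2.64% of all genes), and 1 was lower and 5 higher after scaling (23.1% and 23.7%). LAMA4, a laminin chain, was lower on both (-1.73 and -0.51), and its deposited call was lost without E33 replicate 2, E33 replicate 3 or E95 replicate 2 (adjusted p of 0.0554, 0.0512 and 0.0513). Of the 5 genes higher after scaling, LAMB2, another laminin chain, changed most (2.04, limma adjusted p = 2.44e-07). As deposited it was not called (0.77, adjusted p = 0.161). In the postsynaptic cytoskeleton 3 of 7 were lower and 0 higher as deposited, near the 45.8% and 2.64% of all genes, and 1 was lower and 4 higher after scaling (23.1% and 23.7% of all genes). MACF1, a cytoskeletal linker, fell from 138 ± 38.6 to 19.6 ± 6.43 TPM (-2.76, adjusted p = 4.68e-04; -1.52 after scaling). Of the 4 genes higher after scaling, DTNA changed most (1.65, limma adjusted p = 8.39e-08). As deposited DTNA was not called (0.70, adjusted p = 0.1525). Medians over these 4 lists as deposited were -0.88, -1.13, -0.54 and -0.26, beside -1.02 over all genes. After scaling all 4 medians turned positive, at 0.09, 0.03, 0.69 and 1.01, beside 0.00 over all genes.

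Of 8 genes that respond to denervation, 5 were lower and 1 higher as deposited (45.8% and 2.64% of all genes), and 1 was lower and 2 higher after scaling (23.1% and 23.7%), with medians of -1.02 and -0.05. SCN4A, the sodium channel of adult muscle, rose from 2.39 ± 0.447 to 39.2 ± 17.4 TPM (SD, n = 3 each; log2 change 3.49, limma adjusted p = 5.94e-06; 4.50 after scaling). NCAM1, an adhesion molecule spread over immature fibres, fell from 41.8 ± 13.9 to 5.12 ± 1.39 TPM (-2.77, adjusted p = 3.67e-04; -1.60 after scaling). Of 11 neuronal receptor subunits 3 were tested, with 1 lower and 0 higher as deposited (45.8% and 2.64% of all genes) and 1 lower and 1 higher after scaling (23.1% and 23.7%), too few to set against those shares. CHRNA4 fell from 10.6 ± 1.13 to 0.189 ± 0.114 TPM (-3.28; -2.53 after scaling), beside the summed neuron markers, which went from 128 to 309 TPM to 2.75 to 3.09 TPM, whose part in it was not tested.

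The named genes most like CHRNG over the 18 scaled libraries were CNN3 (Pearson r = 0.974), CLSTN3 (0.970), IL17RD (0.970), PRICKLE2 (0.966) and SPART (0.965). Those most like CHRNA1 were STK39 (0.969), SOHLH2 (0.956), MID1 (0.956), GPR63 (0.956) and HCLS1 (0.954), all below its correlation with MUSK. CHRNG correlated with CHRNA1 at 0.856, with MUSK at 0.872, with LRP4 at 0.714 and with AGRN at 0.604, and negatively with CHRNB1 (-0.31) and DOK7 (-0.33). These values describe courses over 6 shared stages.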

How the data were processed

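The authors deposited TPM per input library, named as such per the file headers, and 1 peak list per stage or PK15 preparation with a fold enrichment and a p-value per peak, per the file headers. The submitters' processing notes name Trimmomatic, HISAT2 and Sscrofa11.1. The quantifier, the peak caller and any pooling of replicates are not given in the sources used here.

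Levels were tested as log2(TPM + 1) with limma 3.58.1 (R 4.3.3): 1 mean per stage, 18 libraries, eBayes with trend, a minimum mean of 1 TPM per gene, two-sided, Benjamini-Hochberg over 13334 genes, called at 0.05. A fold change on this scale understates that of low genes. The scaling divides by the median ratio to the geometric mean of 14215 genes above 0 in all libraries. The members and lists were chosen with earlier results of these data known, and the match by position was added after the files were seen. Named genes are all members, up to 3 genes per list and direction with the largest change called on both scales, and the 5 genes most correlated with CHRNG or CHRNA1. LAMB2 and DTNA, called after scaling only, were named outside this rule. RefSeq supplied exons and sequences. Replicate numbers do not pair libraries: deviations of libraries with the same number correlated at -0.12 to 0.10. A planned permutation test of the CHRNG to CHRNE ratio over 9 against 9 libraries is not reported, since the stage is its unit. The method was tested on simulated data built from the scaled values, with independent noise for each gene. These data held no shift of whole libraries, so the deposited scale was not covered.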

Additional observations from a re-analysis of the deposited data

How the results depend on the processing

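Of the 5 members called from E33 to E95, 4 to 5 were called when 1 library was left out, and 5 with the replicate block. The block gave 3 members in the F test, against 4, and 0 in each step between neighbouring stages. Changes of CHRNB1 and DOK7 reversed: 0.68 and 0.83 after median-ratio scaling, 0.55 and 0.73 after quantile normalization. In TPM without the 2 most abundant genes they were 0.03 and 0.21, and neither gene was called. Median-ratio scaling gave 7 members in the F test, 5 from E33 to E40, 1 from E50 to E60, 3 from E60 to E70 and 3 from E70 to E95. Quantile normalization gave 7, 6, 1, 2 and 5 in the same order. With median-ratio scaling the share of all genes called rose too. It went from 20.1% to 47.3% in the F test and from 4.87% to 20.9% between E33 and E40. For the other settings in this section that share was not computed, so their member counts cannot be set against it. TPM without the 2 most abundant genes gave 4 from E33 to E40, 3 from E60 to E70 and 5 from E70 to E95. Without E40 replicate 2 and E50 replicate 3 these were 2, 2 and 5. A fit to only the libraries of both stages gave 2 from E60 to E70 and 3 from E70 to E95. A pseudocount of 0.1 gave 1 from E70 to E95, no filter gave 1 from E33 to E40, and leaving out 1 library gave 0 to 1 there. The replicate block on scaled values gave 0 from E50 to E60 and 2 from E60 to E70. Fits with the block or without 1 library on scaled values, and those with only the members matched by symbol (4 called from E33 to E95), were chosen after seeing the data. The difference in the log2 ratio of CHRNG to CHRNE ranged from -5.22 to -4.13 over its alternatives, and the number of members with a muscle peak from 4 to 6. The cause of these differences was not tested. Depth is unknown and 3 libraries per stage set the precision; peaks have no replicates.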
